A study of Mus musculus with 2 samples.

Results

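The 9 genes described here carry, unload or take up lipid: Apoe, Apoc2, Pltp, Lpl, Abca1, Abcg1, Cd36, Fabp4 and Fabp5. They were chosen by symbol from the 32285 genes of the count tables, because Pltp had been seen to differ in opposite directions in cells of the retinal pigment epithelium (RPE) and in monocytes, and because Fabp4 and Cd36 had been seen to mark a group of monocytes. Their levels are therefore given as a description, in single cells and summed by cell class and library. RPE and choroid of mice at an age of 10 weeks gave 2 droplet libraries. The Tsc1 flox library held cells of mice with the conditional allele Tsc1tm1Djk/J and no Cre. The Tsc1 RPE KO library held cells of mice with the same allele and Best-Cre, a transgene that the labels call RPE-specific, so both groups carry the floxed allele and only the second carries Cre. The neuroretina had been removed, the tissue digested with enzymes and live cells sorted. Each library was pooled from 1 male and 1 female, so there was 1 library per genotype, no spread between mice could be measured and no test was made.

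Lipid moves between cells on lipoprotein particles, whose apolipoproteins bind receptors and control lipases. ABC transporters load cholesterol and phospholipid onto such particles, phospholipid transfer protein moves phospholipid between them, and lipoprotein lipase releases fatty acids that scavenger receptors and fatty acid binding proteins take up and carry. The RPE digests the shed outer segments of photoreceptors and secretes lipoproteins toward the choroid, and macrophages are known for clearing lipid by the same genes. Tsc1 restrains the kinase mTORC1, a regulator of lipid synthesis.

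Promoter sequence from RefSeq (build GRCm38.p6) was at hand for 5 of the 9 genes, in 7 windows. It is shown for the 2 genes whose RPE levels are compared most closely below, for Abca1, the only one of the 7 windows with a match to the liver X receptor type of motif, and for Cd36, which marked monocytes. Each line gives the 250 bases before the start site, 5′ to 3′ on the strand of the gene, with motif matches in capitals. The windows are chr2:164857709-164857958 for Pltp, chr7:19699189-19699438 for Apoe, chr4:53159896-53160145 for Abca1 and chr5:17835897-17836146 for Cd36, all on the minus strand.
Pltp: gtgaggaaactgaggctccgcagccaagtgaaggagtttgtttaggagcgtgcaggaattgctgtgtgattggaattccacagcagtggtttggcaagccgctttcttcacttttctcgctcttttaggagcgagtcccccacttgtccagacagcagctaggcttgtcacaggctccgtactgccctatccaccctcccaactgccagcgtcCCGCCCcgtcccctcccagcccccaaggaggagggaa
Apoe: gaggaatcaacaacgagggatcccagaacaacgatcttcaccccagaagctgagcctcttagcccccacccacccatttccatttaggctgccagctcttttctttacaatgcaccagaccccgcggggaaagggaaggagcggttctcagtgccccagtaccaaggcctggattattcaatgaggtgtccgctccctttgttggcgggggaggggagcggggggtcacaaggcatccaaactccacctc
Abca1: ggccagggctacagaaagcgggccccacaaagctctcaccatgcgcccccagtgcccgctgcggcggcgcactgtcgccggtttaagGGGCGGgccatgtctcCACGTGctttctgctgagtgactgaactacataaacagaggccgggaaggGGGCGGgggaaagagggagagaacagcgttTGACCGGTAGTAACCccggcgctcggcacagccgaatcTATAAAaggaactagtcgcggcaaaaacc
Cd36: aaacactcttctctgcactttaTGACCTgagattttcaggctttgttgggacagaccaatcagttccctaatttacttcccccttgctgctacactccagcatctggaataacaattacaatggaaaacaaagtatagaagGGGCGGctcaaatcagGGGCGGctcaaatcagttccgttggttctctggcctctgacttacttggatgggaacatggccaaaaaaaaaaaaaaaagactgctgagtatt

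The motifs were searched on both strands, and each is given with its share among 32851 mouse promoter windows of the same length. A DR4-like motif, the direct repeat that liver X receptors are known to bind, stood in 0.177% of windows. The nuclear receptor half-site AGGTCA stood in 14.0%, the TATA box TATAAA in 12.4%, the E-box CACGTG in 6.02% and the GC box GGGCGG in 32.7%. The Abca1 window held the DR4-like motif on its other strand as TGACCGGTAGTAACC, from -67 to -53 relative to the start site, with TATAAA from -29 to -24, CACGTG from -147 to -142 and 2 GC boxes, and these matches did not overlap. The Pltp window held 1 GC box, from -37 to -32, on its other strand. The Cd36 window held an AGGTCA on its other strand, from -228 to -223, and 2 GC boxes. The Apoe window shown held 0 matches. A match describes letters only, and factor binding was not measured.

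On GENCODE M21 coordinates of the same build, Apoe (ENSMUSG00000002985) lies at chr7:19696109-19699188 and Apoc2 (ENSMUSG00000002992) in the same cluster at chr7:19671579-19677941. Pltp (ENSMUSG00000017754) lies at chr2:164839518-164857711 on the minus strand, and Cd36 (ENSMUSG00000002944) at chr5:17781690-17888801. Fabp4 (ENSMUSG00000062515) at chr3:10204088-10208576 and Fabp5 (ENSMUSG00000027533) at chr3:10012548-10016607 are on the same chromosome. Lpl (ENSMUSG00000015568) lies at chr8:68880491-68907448, Abca1 (ENSMUSG00000015243) at chr4:53030787-53159895 and Abcg1 (ENSMUSG00000024030) at chr17:31057675-31117988. Pltp overlaps Ctsa, a lysosomal protease gene on the other strand. Whether the counting used strand is not stated in the sources used here, so Ctsa is given beside Pltp below.

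The libraries held 1524 Tsc1 flox and 1853 Tsc1 RPE KO cells, with medians of 4525 and 4617 UMIs (unique molecular identifiers, 1 per captured RNA molecule), and 2 cell barcodes occurred in both. Cells were clustered without the 9 genes and without 135 other lipid genes, and clusters were named from marker genes. RPE-like cells were rare (12 and 46 cells), and 7 of 8 RPE markers were seen in each library, with Best1 at 0 in both. Tsc1 itself was at 0 UMIs in RPE-like cells of either library, so its deletion could not be read. The make-up of the libraries differed. Nonclassical monocyte-like cells were 87 (5.71% of cells) in Tsc1 flox against 443 (23.9%) in Tsc1 RPE KO, and rod-like cells 42 (2.76%) against 176 (9.50%). Other classes went the other way, such as B cell-like (27.0% against 17.3%) and fibroblast-like cells (17.5% against 9.61%). Levels are UMIs of a gene per 1000000 UMIs of a class (CPM), with 95% intervals that cover counting error only. Values given in pairs are for Tsc1 flox first, then for Tsc1 RPE KO, and a ratio is the second over the first. A gene was called measured in a class at 50 UMIs over both libraries, and past the fold at a ratio of 1.5 or more in either direction.

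Each gene had its own pattern over the cell classes. Apoe, the apolipoprotein that binds the LDL receptor family, was highest in RPE-like cells, at 10718 CPM (9616 to 11913) and 9110 CPM (8578 to 9666). Below them the order differed between the libraries. In Tsc1 flox, nonclassical monocyte-like cells came next at 4498 CPM, then fibroblast-like cells at 1693 CPM and classical monocyte-like cells at 1553 CPM, whose intervals overlapped, and endothelial-like cells at 1261 CPM. In Tsc1 RPE KO, classical monocyte-like cells came next at 2920 CPM, then fibroblast-like cells at 2107 CPM and nonclassical monocyte-like cells at 1997 CPM, whose intervals overlapped, and endothelial-like cells at 1133 CPM. The place of the classical cells rested on 1 cell: without the cell richest in Apoe in each class, these 3 classes stood at 1988, 1995 and 1966 CPM. B cell-like cells had 251 and 305 CPM of Apoe, with a UMI in 30.3% and 33.4% of cells. NK cell-like cells, which served as a class without the gene, had a UMI in 1.76% and 0.826% of cells at median depths of 4303 and 4387 UMIs, against 3907 and 3868 UMIs in B cell-like cells. After thinning each cell to 1000 UMIs the B cell-like shares were 12.9% and 18.8%, and 0 NK cell-like cells kept a UMI.

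Pltp encodes phospholipid transfer protein, which moves phospholipids between lipoproteins. It was high in RPE-like cells at 1122 CPM (786 to 1553) and 475 CPM (360 to 616), and in endothelial-like cells at 636 CPM (523 to 767) and 714 CPM (595 to 850). RPE-like cells thus stood above endothelial-like cells in the Tsc1 flox library and below them in the Tsc1 RPE KO library, and in the second the intervals overlapped. Nonclassical monocyte-like cells followed at 219 and 264 CPM, then fibroblast-like cells at 88.0 and 100.3 CPM and classical monocyte-like cells at 61.0 and 127 CPM, with intervals that overlapped between these 2 classes in each library. NK cell-like cells held 0 and 1 UMIs, and 0 members were measured in them, where 3.62% of genes were higher and 5.32% lower past the fold.

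Apoc2, the activator of lipoprotein lipase, was nearly restricted to monocytes, with 450 and 538 CPM in nonclassical and 95.8 and 151 CPM in classical monocyte-like cells, and at most 2 UMIs in a library in any other class described. Cd36, a scavenger receptor and fatty acid transporter, had 426 and 229 CPM in nonclassical monocyte-like cells, against 15.0 and 26.7 CPM in classical monocyte-like and 9.68 and 5.29 CPM in B cell-like cells. Fabp4, a fatty acid binding protein known from adipocytes and macrophages, had 441 and 452 CPM in nonclassical monocyte-like cells and 17.4 and 8.10 CPM in classical ones. Endothelial-like cells had 0 Fabp4 UMIs in 41 Tsc1 flox cells and 18 in 48 Tsc1 RPE KO cells, but these 18 came from 4 cells.

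Lpl, the secreted lipase, reached 41.3 and 96.1 CPM in nonclassical and 22.2 and 34.8 CPM in classical cells. Abca1, which lipidates apolipoproteins at the cell surface, had 184 CPM (160 to 210) and 166 CPM (138 to 197) in fibroblast-like cells. Endothelial-like cells stood below them at 75.2 CPM (40.0 to 129) in the first library and level with them at 181 CPM (124 to 256) in the second, where the intervals overlapped, with B cell-like cells at 73.2 and 55.9 CPM, while both monocyte classes lay between 3.96 and 13.1 CPM. Abcg1, the transporter that adds cholesterol to lipidated particles, was spread more evenly. It stood at 155 and 101 CPM in rod-like, 110 and 136 in endothelial-like, 124 and 80.8 in nonclassical monocyte-like and 56.7 and 42.7 CPM in T cell-like cells, with intervals that overlapped among the first 3 in each library. Fabp5 was low, with 29.1 and 30.1 CPM in T cell-like cells and 0 UMIs in RPE-like cells.

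**Figure D1:**
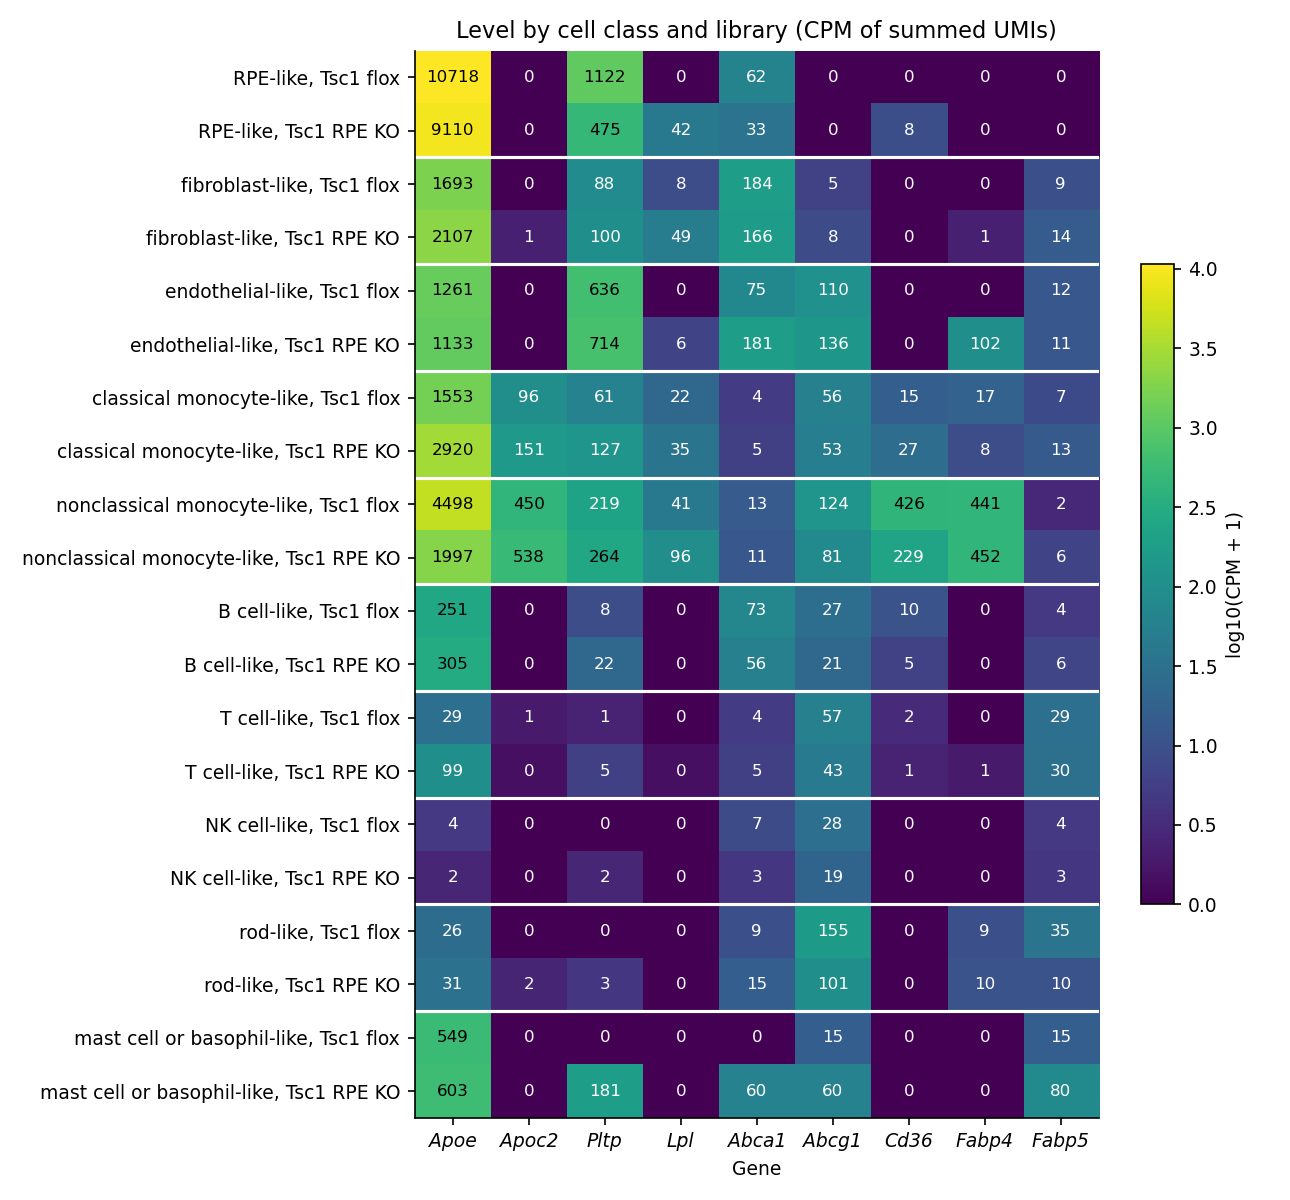
Level of the 9 genes (columns) by cell class and library (rows), as CPM of summed UMIs, printed in each cell and coloured on a log10(CPM + 1) scale. Apoe is at 10718 and 9110 CPM in RPE-like cells, Pltp is high in RPE-like and endothelial-like cells, and Apoc2, Cd36 and Fabp4 are high in nonclassical monocyte-like cells.

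In RPE-like cells, Pltp and Apoe were the only members with enough UMIs to compare. Pltp had 36 UMIs over 12 Tsc1 flox cells and 57 UMIs over 46 Tsc1 RPE KO cells, which gave a ratio of 0.424 (0.274 to 0.662), or 2.36-fold lower with Cre. A Tsc1 flox RPE-like cell held a median of 3 Pltp UMIs (range 0 to 7) and a Tsc1 RPE KO cell a median of 1 (range 0 to 5), at median depths of 2582 and 2200 UMIs. The cells of the libraries overlapped widely, since 2 of 12 and 16 of 46 held no Pltp UMI. Scaled to 10000 UMIs of a cell, the medians were 10.1 and 4.13.

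Apoe in the same cells moved less. It had a median of 29.5 UMIs per cell (range 18 to 41) against 19.5 (range 2 to 73), and a UMI in each of the 58 cells. Its ratio was 0.850 (0.752 to 0.962), which did not pass the fold, and 0.910 (0.804 to 1.03) without 2 mixed barcodes described below. In the count of members, 1 of 2 measured was past the fold on the lower side and 0 on the higher side. Among the 386 genes measured in RPE-like cells, 11.1% were past it lower and 19.7% higher, and the choice of Pltp rested on this very contrast. Of the other members, Lpl had 0 and 5 UMIs, Abca1 2 and 4, Cd36 0 and 1, and Abcg1, Apoc2, Fabp4 and Fabp5 had 0 in both libraries. For the 12 Tsc1 flox cells, 0 UMIs allow up to 93.5 CPM by the rule of 3 counts and up to 115 CPM by the Poisson interval.

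Other RNA in the RPE-like barcodes differed between the libraries. B cell markers summed to 31.2 CPM (only Igkc of 12 markers seen) and 967 CPM (10 of 12, with Ms4a1 and Pax5 at 0). Of the Tsc1 RPE KO barcodes, 2 held 83 and 116 UMIs of leukocyte markers, where every other RPE-like barcode held at most 3. Without these 2 barcodes the Pltp ratio was 0.474 (0.306 to 0.742). The summed melanocyte list, whose pigment genes the RPE also expresses, stood at 1402 CPM (5 of 8 seen, with Pmel, Ednrb and Kit at 0) and 2592 CPM (7 of 8, with Kit at 0), and its part in the result was not tested. Ctsa, on the strand opposite Pltp, had 6 and 18 UMIs in these cells, a ratio of 0.802 (0.305 to 2.47). Among RPE-like barcodes below the cell minimums, from 500 UMIs up, which were not used above, the Pltp ratio was 0.493 (0.298 to 0.808).

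Of the 386 genes measured in RPE-like cells, 19.7% were higher and 11.1% lower past the fold. Of the other lipid genes, 8 of 135 were measured there, of which 1 was higher and 2 were lower. The higher gene was Mgll, a lipase for monoacylglycerol, at 312 and 717 CPM, a ratio of 2.30 (1.19 to 4.97). The lower genes were Lrp1, an Apoe receptor, at 654 and 383 CPM and a ratio of 0.586 (0.343 to 1.03), and Acsl6, a fatty acyl-CoA synthetase, at 623 and 400 CPM and a ratio of 0.642 (0.374 to 1.14). The intervals of both included 1. The median log2 ratio of the 8 genes was -0.12, beside 0.04 over all measured genes. Clu, an apolipoprotein also called clusterin, stood at 6512 and 7151 CPM.

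**Figure D2:**
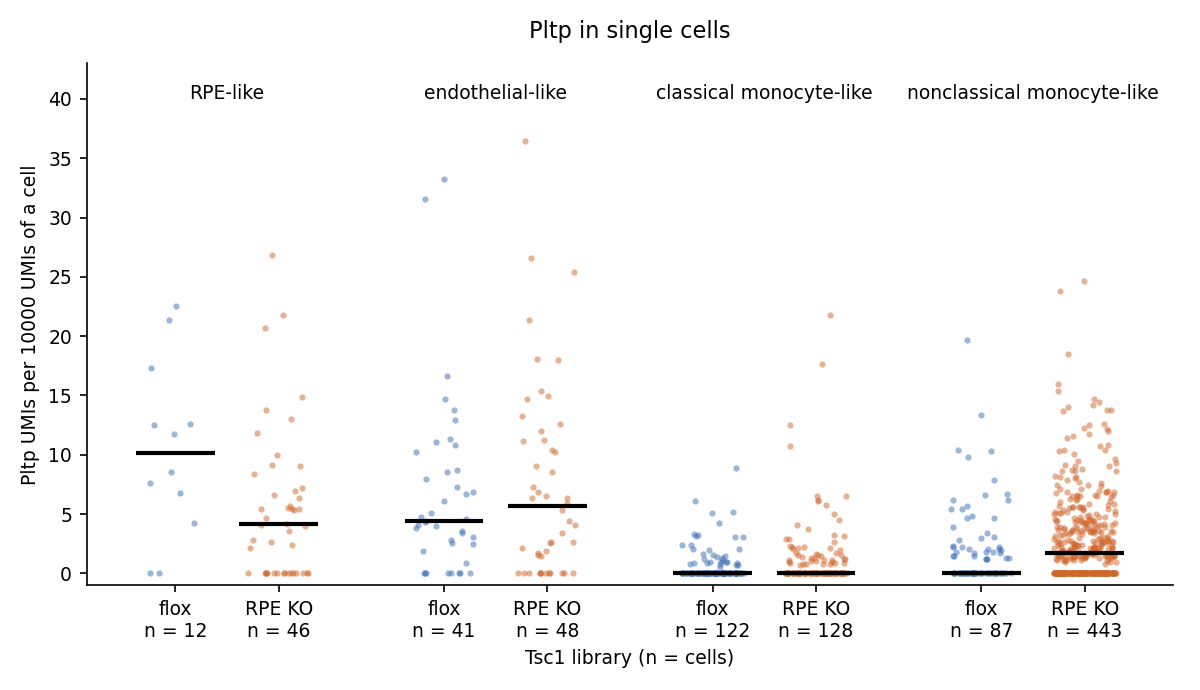
Pltp UMIs per 10000 UMIs of a cell (vertical axis) for each cell (point) of 4 classes in the Tsc1 flox and Tsc1 RPE KO libraries, with the median as a bar. The median RPE-like cell is at 10.1 (Tsc1 flox) against 4.13 (Tsc1 RPE KO), with wide overlap, and most classical monocyte-like cells are at 0 in both.

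In classical monocyte-like cells (122 and 128 cells), Pltp had the opposite direction. Its 77 and 157 UMIs gave 61.0 CPM (48.1 to 76.2) and 127 CPM (108 to 149), a ratio of 2.09 (1.58 to 2.78). A Pltp UMI was seen in 34 of 122 cells (27.9%) and 52 of 128 cells (40.6%), so most cells of either library held none. After thinning, the shares were 4.10% and 8.59%. Free RNA, read from barcodes of 10 to 100 UMIs, held 69.6 and 135 CPM of Pltp. Its share of the UMIs of the class, estimated from haemoglobin, was only 0.179% and 0.161%. Subtraction at such small shares could hardly change the ratio, which was again 2.09. The class also held 2 dendritic cell-like groups of the clustering of monocyte-like cells alone (described next). Subcluster 9, with 4 and 3 cells, held 21 of the 77 and 17 of the 157 UMIs, and subcluster 6, with 15 and 13 cells, held 1 and 1. Without both groups Pltp had 55 and 139 UMIs, a ratio of 2.4 (1.74 to 3.34). Ctsa had a ratio of 1.13 (0.965 to 1.32) in these cells. Pltp in endothelial-like cells, with 110 and 126 UMIs, had a ratio of 1.12 (0.861 to 1.46), and in fibroblast-like cells, with 101 and 78 UMIs, 1.14 (0.837 to 1.55).

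Apoe in classical monocyte-like cells had 1961 and 3606 UMIs, a ratio of 1.88 (1.78 to 1.99). The median cell went the other way, with 7.5 and 6 Apoe UMIs. A single Tsc1 RPE KO cell held 1170 of the 3606 UMIs, or 32.4%. Without the cell with most Apoe UMIs in each library the ratio was 1.36, which is under the fold. Apoc2 had 121 and 186 UMIs with a ratio of 1.57 (1.24 to 1.99), Lpl 28 and 43 UMIs with 1.57 (0.954 to 2.63) and Cd36 19 and 33 UMIs with 1.78 (0.981 to 3.31). Abcg1, with 71 and 65 UMIs, had a ratio of 0.936 (0.658 to 1.33). Thus 5 of 6 measured members were higher past the fold and 0 lower, where 4.55% of the 5402 measured genes were higher and 4.83% lower. The intervals of Lpl and Cd36 included 1, and the choice of Pltp rested on this very contrast. Without subclusters 6 and 9, Apoc2 had a ratio of 1.46 (1.15 to 1.85) and Lpl of 1.46 (0.884 to 2.43), both under the fold. Apoe, Pltp and Cd36 stayed past it there, at 1.75, 2.4 and 1.65. Of the Apoc2 UMIs, 2 and 58 lay in monocyte subcluster 4, in 1 and 13 cells of the class.

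Macrophage and neutrophil markers were also higher in the Tsc1 RPE KO library in this class. The macrophage list summed to 211 CPM (10 of 11 seen, with Gas6 at 0) and 517 CPM (10 of 11, with Lyve1 at 0). The neutrophil list summed to 57.8 CPM (5 of 11, with S100a9, Retnlg, Mmp9, Lcn2, Camp and Ltf at 0) and 699 CPM (8 of 11, with Ngp, Camp and Ltf at 0). Their part in the ratios was not tested. When all monocyte-like cells were clustered anew without the lipid genes, most classical cells fell into subclusters 2 and 3. Subcluster 2 (38 and 51 classical cells) was led by C1qb, C1qc and major histocompatibility class II genes. By the same marker rule it took the name macrophage-like. It held 38 of the 77 and 109 of the 157 Pltp UMIs of the classical class. Subcluster 3 (53 and 44 classical cells), led by Fn1 and F13a1, took the name classical monocyte-like. Subcluster 2 also held 7 and 3 cells of the nonclassical class, which are left out of the member values that follow.

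In the classical cells of subcluster 2, Pltp had 38 and 109 UMIs, at 100.2 and 215 CPM, a ratio of 2.15 (1.47 to 3.19). Apoe had 825 and 2471 UMIs there, at 2176 and 4880 CPM, a ratio of 2.24 (2.07 to 2.43). The Tsc1 RPE KO cell with 1170 Apoe UMIs lay in this group, and without the richest cell of each library the ratio was 1.38 (1.26 to 1.52). Cd36 had 17 and 26 UMIs in these cells, a ratio of 1.15 (0.598 to 2.25). The macrophage list stood at 414 and 1011 CPM over all cells of the subcluster. In subcluster 3, Pltp had only 13 and 17 UMIs, a ratio of 1.63 (0.744 to 3.64), and Apoe had 1767 and 2055 CPM, a ratio of 1.16 (1.06 to 1.28). The neutrophil list stood at 73.5 and 1942 CPM in subcluster 3 and at 51.7 and 46.4 CPM over all cells of subcluster 2.

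In classical monocyte-like cells, 4.55% of the 5402 measured genes were higher and 4.83% lower past the fold. Among the other lipid genes, 57 were measured there, with 4 higher and 4 lower. The higher ones were Cxcl16, a scavenger receptor for oxidised lipoprotein, with 5 and 58 UMIs and a ratio of 11.9 (4.8 to 37.9), G0s2, an inhibitor of the lipase of lipid droplets, with 29 and 97 UMIs and a ratio of 3.42 (2.24 to 5.37), Acsl1 and Trem2. The lower ones were Msr1, the class A scavenger receptor, with a ratio of 0.493 (0.329 to 0.727), Cyp27a1, a sterol hydroxylase, with 0.611 (0.415 to 0.892), Nceh1, a cholesterol ester hydrolase, with 0.560 (0.343 to 0.896), and Insig2. Cxcl16 was among the leading genes of monocyte subcluster 4, which held 1 and 13 cells of this class, and the part of these cells in its ratio was not tested. The median log2 ratio of the 57 genes was -0.09, beside -0.01 over all measured genes.

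**Figure D3:**
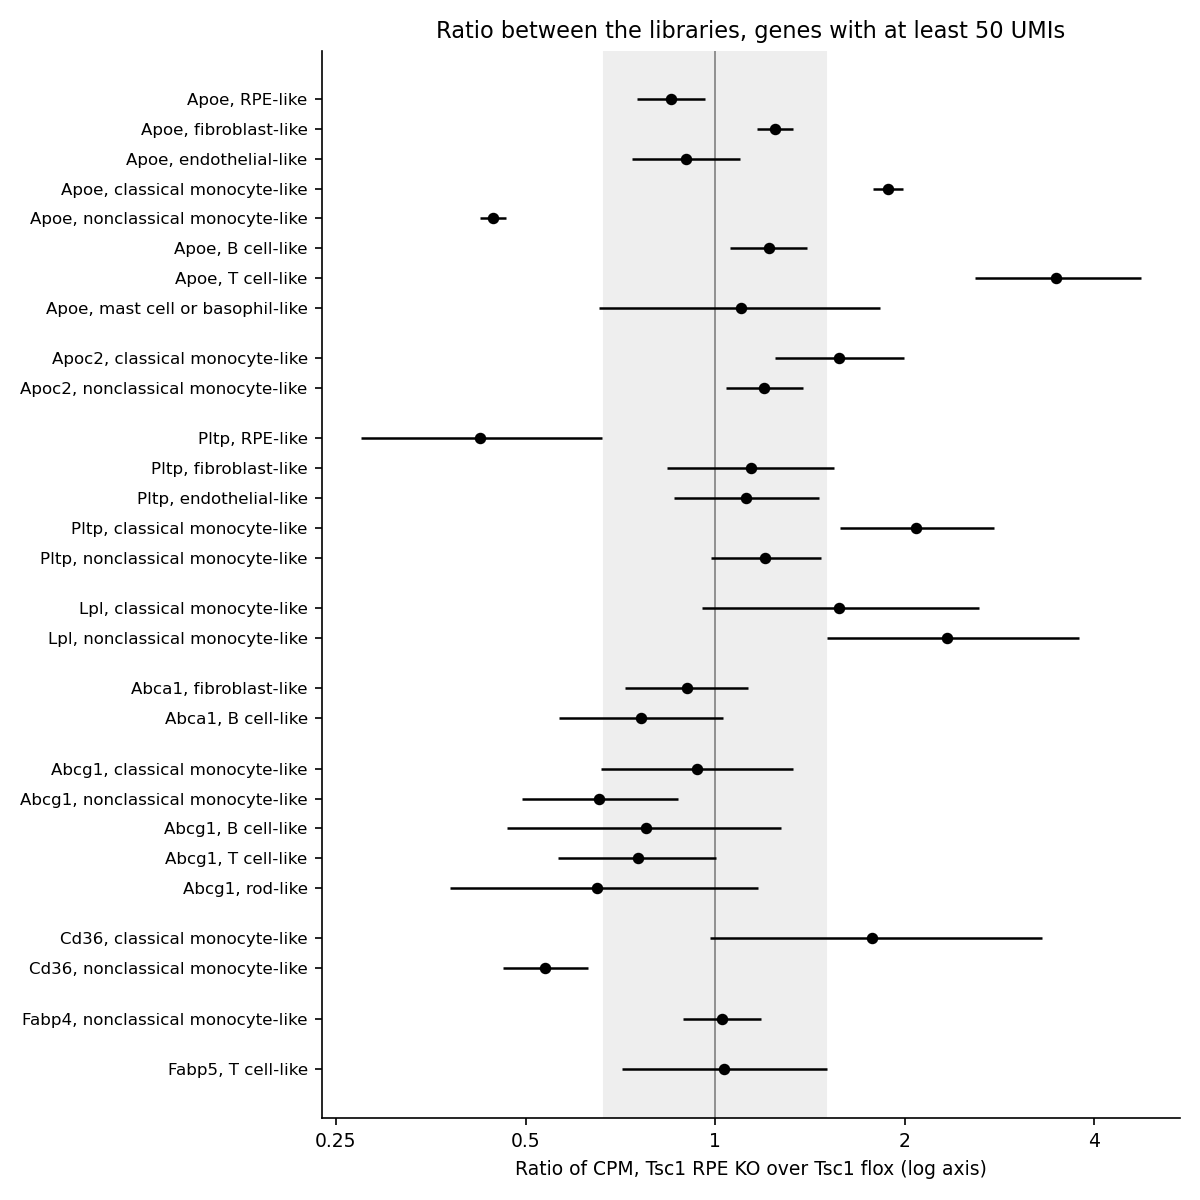
Ratio of CPM in Tsc1 RPE KO over Tsc1 flox (log axis) for each member with at least 50 UMIs in a class, with the 95% counting interval as a line and the range within 1.5-fold in grey. Pltp lies left of the grey band in RPE-like cells and right of it in classical monocyte-like cells, and Apoe lies left in nonclassical and right in classical monocyte-like and T cell-like cells.

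Nonclassical monocytes are the subset that patrols vessel walls. In nonclassical monocyte-like cells, Apoe had 2399 UMIs over 87 cells against 5215 over 443 cells, a median of 12 and 5 UMIs per cell. The ratio was 0.444 (0.423 to 0.466). Cd36 had 227 and 597 UMIs with a ratio of 0.537 (0.460 to 0.629), and a UMI in 73.6% and 55.5% of cells, or 28.7% and 18.5% after thinning to 1000 UMIs. Abcg1 had 66 and 211 UMIs with a ratio of 0.653 (0.493 to 0.875).

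Lpl was the member that stood higher, with 22 and 251 UMIs and a ratio of 2.33 (1.51 to 3.79). Fabp4 had 235 and 1179 UMIs, a ratio of 1.02 (0.890 to 1.18), and a UMI in 66.7% and 68.2% of cells (33.3% and 33.9% thinned), against 0 UMIs in the 170 and 121 NK cell-like cells. Apoc2 had a ratio of 1.2 (1.04 to 1.38) and Pltp, with 117 and 688 UMIs, 1.2 (0.986 to 1.47). In the count, 1 of 7 measured members was higher and 3 were lower past the fold, where 10.6% of the 6077 measured genes were higher and 7.17% lower.

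The class did not hold the same cells in both libraries. Cluster 6 held 57 of the 87 Tsc1 flox cells and cluster 3 held 257 of the 443 Tsc1 RPE KO cells. In the clustering of monocyte-like cells alone, subcluster 1, led by Scnn1a, Cd36, Fcgr4, Pparg, Cd300e and Fabp4, held 70 and 75 cells, which were 80.5% and 16.9% of the nonclassical cells. Subclusters 0, 4 and 5 together held 11 Tsc1 flox and 371 Tsc1 RPE KO monocyte-like cells, so each may be a feature of that library. Of these cells, 1 and 13 in subcluster 4 and 0 and 1 in subcluster 5 were of the classical class. The erythroid list stood at 255 and 1053 CPM in nonclassical cells (5 of 8 seen in each), and haemoglobin made up 0.412% of the UMIs of the Tsc1 RPE KO cells of subcluster 5. Its part in the ratios was not tested.

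Within subcluster 1, which both libraries filled, Apoe, Cd36 and Abcg1 had ratios nearer to 1 than in the whole class, and Pltp and Fabp4 had larger ones. Apoe had 5612 CPM (5381 to 5850) and 4775 CPM (4554 to 5005), a ratio of 0.851 (0.799 to 0.906). Cd36 had 479 and 424 CPM, a ratio of 0.886 (0.712 to 1.1), Abcg1 159 and 134 CPM and Apoc2 521 and 452 CPM. The Apoc2 ratio of 0.866 (0.701 to 1.07) lay below 1, where that of the whole class was 1.2. Lpl had only 19 and 6 UMIs, under the minimum of 50 for a measured gene, and their ratio of 0.343 (0.112 to 0.894) lay on the other side of 1 from that of the whole class. Pltp had 242 CPM (196 to 295) and 419 CPM (355 to 491), a ratio of 1.73 (1.33 to 2.26), with a UMI in 52.9% and 77.3% of cells. Ctsa had a ratio of 1.05 (0.780 to 1.42) there. Fabp4 had 514 and 761 CPM, a ratio of 1.48 (1.23 to 1.78). Of 6 measured members, 1 was higher and 0 lower past the fold, where 4.62% of 2467 genes were higher and 6.08% lower.

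The 3 subclusters filled mostly by Tsc1 RPE KO cells differed among themselves in the same genes. Subcluster 0 (195 cells), led by Pecam1, Fpr1 and Siglece, had 1754 CPM of Apoe, 270 CPM of Cd36 and 184 CPM (158 to 213) of Lpl, whose UMIs there were 176 of the 251 of the class. Subcluster 4 (86 cells), led by Nr1h3, Sdc1, Prdx5 and Cxcl16, had 995 CPM of Apoe, 70.1 CPM of Cd36 and 241 CPM of Fabp4. Of its 86 cells, 13 were of the classical class. Subcluster 5 (90 cells), led by Hbb-bs, had 1903 CPM of Apoe and 798 CPM (729 to 871) of Apoc2. Their Pltp lay between 185 and 287 CPM, below the 419 CPM of subcluster 1 in the same library. Apoe in each of the 3 was below the 4775 CPM of subcluster 1.

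**Figure D4:**
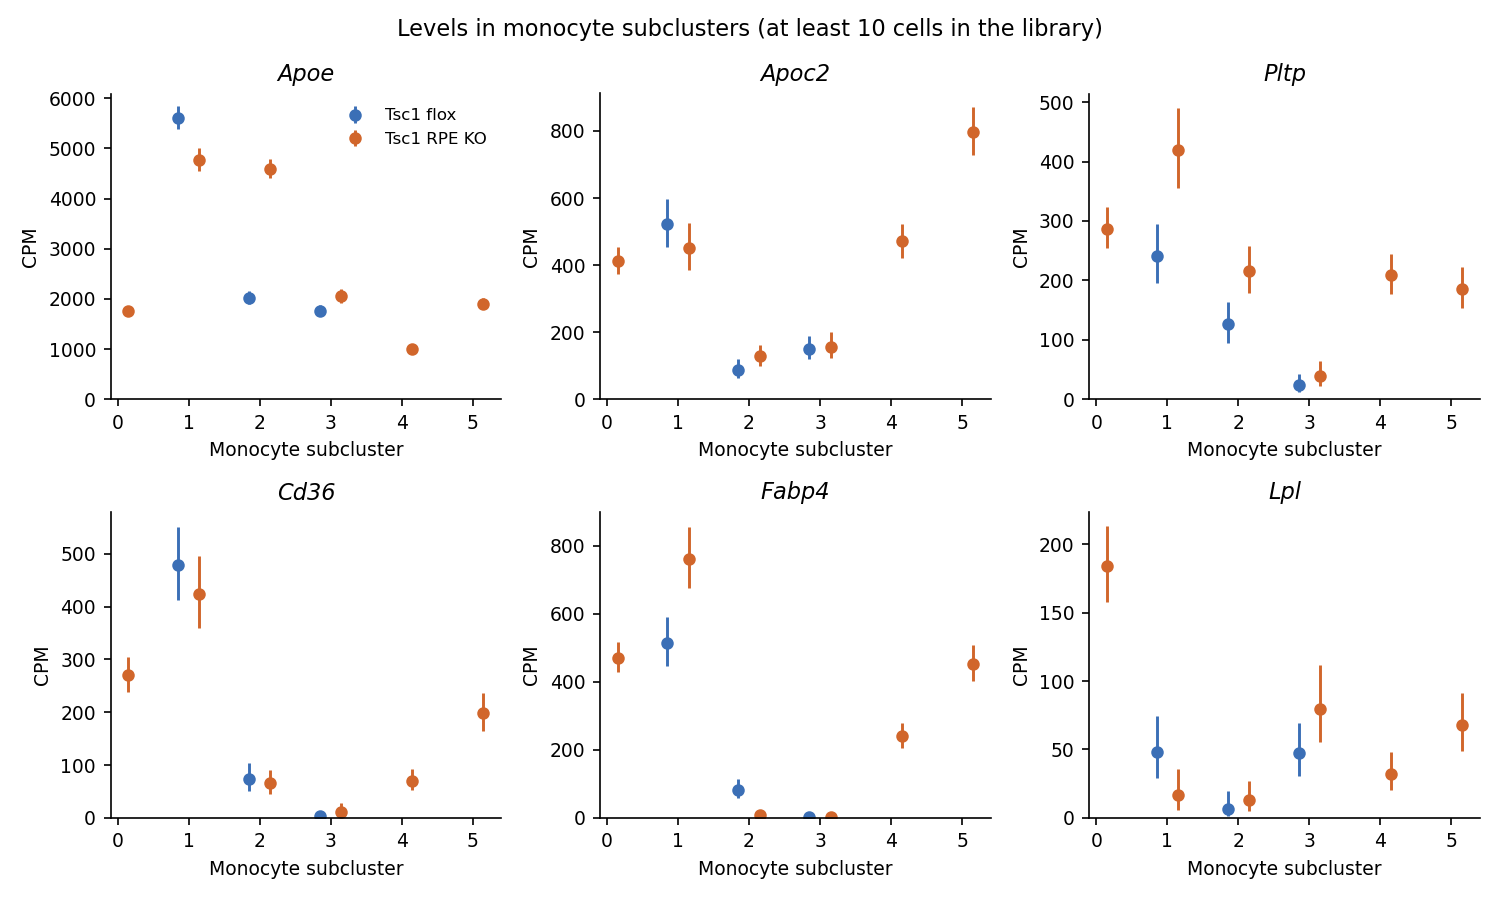
CPM of 6 members (panels) in monocyte subclusters 0 to 5 by library, with 95% Poisson counting intervals, shown where a library had at least 10 cells. Subcluster 1 has the highest Apoe and Cd36 in both libraries, but its Apoe interval in Tsc1 RPE KO overlaps that of subcluster 2. Lpl is highest in subcluster 0, and subclusters 0, 4 and 5 have Tsc1 RPE KO points only.

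Among the 6077 genes measured in nonclassical monocyte-like cells, 10.6% were higher and 7.17% lower past the fold. Of the other lipid genes, 61 were measured there, with 4 higher and 7 lower. The median log2 ratio of these 61 was -0.08, beside 0.02 over all measured genes. Nr1h3, the gene of liver X receptor alpha, which drives Abca1, Abcg1 and Apoe in macrophages, had 11 and 176 UMIs and a ratio of 3.27 (1.78 to 6.67). Nr1h3 stood at 149 CPM (106 UMIs) in Tsc1 RPE KO cells of subcluster 4, which it led, and at 43.9 CPM in subcluster 0. Cxcl16, also among the leading genes of subcluster 4 (6 and 73 nonclassical cells), had 0 and 58 UMIs. This was 3.95-fold higher against a floor of 3 counts over the class. The lower counting bound of the Cxcl16 ratio was 3.11, and Abca3 and Srebf2 also passed. The lower genes included Abca9 at 0.370 (0.211 to 0.663), Cebpa at 0.467 (0.331 to 0.667), Abcg3 at 0.536 (0.369 to 0.792), Plin3, Insig1 and Scarb2. In subcluster 1 alone Cebpa had a ratio of 0.669 (0.385 to 1.14).

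Fabp4 and Cd36 were seen together in 50 of 87 Tsc1 flox and 179 of 443 Tsc1 RPE KO nonclassical cells. The product of their shares gave 42.7 and 168 cells. After thinning to 1000 UMIs, 12 and 26 cells held both, beside products of 8.33 and 27.8.

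In the remaining classes the members differed less or rested on few cells. Fibroblast-like Apoe had 1944 and 1639 UMIs, a ratio of 1.24 (1.16 to 1.33). The 2 clusters of the class went opposite ways, with an Apoe ratio of 1.32 (1.23 to 1.41) from 1902 and 1624 UMIs in cluster 1 and of 0.423 (0.218 to 0.779) from 42 and 15 UMIs in cluster 14. Fibroblast-like Abca1 had 211 and 129 UMIs, a ratio of 0.902 (0.719 to 1.13). Lpl in fibroblast-like cells had 9 and 38 UMIs, of which the 38 came from 6 cells of cluster 14, and 1 of these held 19. Of 3 measured members 0 were past the fold, where 4.11% of genes were higher and 7% lower. Among 59 other lipid genes measured there, 1 was higher, Cav1, the caveolin of surface caveolae, at 11.3 and 52.7 CPM, a ratio of 4.66 (2.45 to 9.47), and 0 were lower.

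Endothelial-like cells showed 0 of 2 measured members past the fold, where 7.28% of genes were higher and 8.98% lower. Abca1, with 13 and 32 UMIs, was not measured by the rule used and had a ratio of 2.41 (1.23 to 5.00). Of 12 other lipid genes measured, 2 were higher and 0 lower. They were Gpihbp1, the endothelial anchor of lipoprotein lipase, at 81.0 and 255 CPM and a ratio of 3.15 (1.70 to 6.21), and Klf4, a flow-responsive transcription factor, with 1.88 (1.5 to 2.36).

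B cell-like Apoe had a ratio of 1.22, and 0 of 3 measured members were past the fold there, where 2.66% of genes were higher and 4.05% lower. T cell-like Apoe had 58 UMIs in 11 of 340 cells against 205 UMIs in 27 of 374 cells, a ratio of 3.48 (2.59 to 4.74), but 48 of the 58 and 102 of the 205 lay in 1 cell each. Without these cells the ratio was 10.1 (5.27 to 21.7), and without the 3 richest cells of each library it was 4.06 (1.84 to 10.2), from 8 and 33 UMIs. Cluster 12 alone held 50 and 177 of the UMIs, with a ratio of 2.88 (2.09 to 4.03). It was the 1 of 3 measured members higher past the fold, with 0 lower, where 4.58% of genes were higher and 2.37% lower. Rod-like Abcg1, the 1 measured member there, had a ratio of 0.650 (0.379 to 1.17), where 17% of genes were higher and 6.38% lower. Mast cell or basophil-like Apoe, with 37 and 30 UMIs, had 549 and 603 CPM with overlapping intervals, and this 1 measured member was not past the fold, where 5.45% of genes were higher and 12.4% lower.

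The direction of the Pltp ratio was the same under the other settings tried in RPE-like and in classical monocyte-like cells. Pltp was chosen for these directions in the same data, so the settings show only how its ratio depends on processing. In RPE-like cells the ratio lay between 0.356, with at least 1000 UMIs per cell, and 0.520, as a mean over cells. In classical monocyte-like cells it lay between 1.63, in subcluster 3 alone, and 2.65, with lipid genes kept in the clustering. In nonclassical monocyte-like cells it lay between 1.1 and 1.73, and passed the fold in subcluster 1 and, at 1.56, without the 3 cells richest in Pltp of each library.

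**Figure D5:**
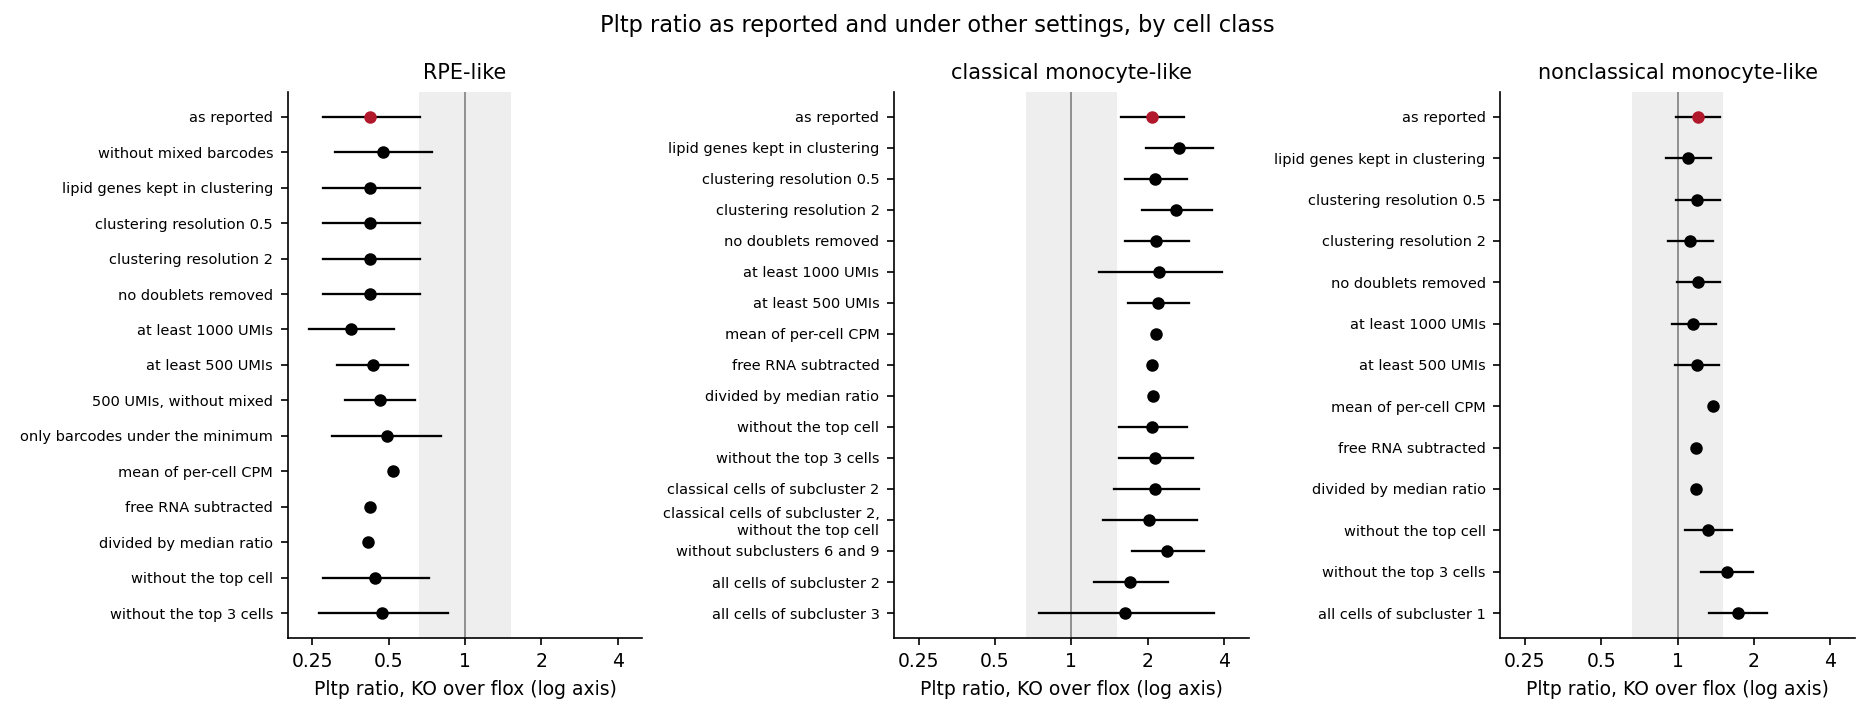
Ratio of Pltp CPM in Tsc1 RPE KO over Tsc1 flox (log axis) in 3 cell classes, as reported (red) and under each other setting (black), with 95% counting intervals where they could be computed and the range within 1.5-fold in grey. RPE-like values stay below 1 and classical monocyte-like values above 1, directions for which Pltp was chosen in the same data.

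The genes most like each member were sought over 17 class sums of both libraries (classes with at least 20 cells, log2(CPM + 10), genes with at least 200 UMIs). The correlations are across classes that share libraries and depth, and describe a pattern only. Apoe was most like Hsd17b11 (r = 0.90), Plxnb2 and Zfp467, and Pltp most like Ctbs (0.94), Dusp3 and Hsd17b12. Cd36 was most like Fcgr4 (0.98), and Fabp4 most like Cd300e (0.94), both in the marker list that named the nonclassical monocyte-like class. Fabp4 and Cd36 were chosen because they had been seen to mark monocytes. Their likeness to these markers and to each other was therefore set in part by those choices. Apoc2 was most like Pilrb1 (1.0), Lpl most like Tmem51 (0.91), Abca1 most like Ddah2 (0.91), Abcg1 most like Ddhd1 (0.84) and Fabp5 most like Igflr1 (0.86). Among the members, Apoc2 and Cd36 had r = 0.92, Apoe and Pltp 0.87, and Cd36 and Fabp4 0.83.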

How the data were processed

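Droplet libraries of 1 Tsc1 flox and 1 Tsc1 RPE KO pool, of 2 mice each, were analysed. The authors deposited raw UMI counts per gene and barcode without a barcode filter, for 32285 genes. Cell Ranger 2.1.1 and mm10 stand in the submitters' processing notes, whereas the matrix header carries Cell Ranger 4; which of them made the counts is not given in the sources used here. The tables held 10771118 and 12574364 UMIs on 661479 and 728310 barcodes.

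Cells were barcodes above 1487 and 1374 UMIs (10% of the 99th percentile of the top 3000) with at least 200 genes and at most 20% mitochondrial UMIs. Scrublet in scanpy 1.11.5 marked 8 and 19 doublets, which were removed. The 2000 most variable genes, without the members and 135 other lipid genes, gave 30 components, 20 neighbours and 19 clusters (leidenalg 0.10.2, resolution 1). Each cluster was matched to the class with the highest mean log2 fold of its markers over the rest. It took a name ending in "-like" when this mean was above 1 and at least 3 markers were seen in 10% of its cells at 2-fold or more. In addition, no other class could have more markers among its 10 leading genes. A cluster of low depth with no marker of its class among these genes took no name. Classes are rebuilt, so differences from the study may come from names.

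UMIs were summed by class and library. Intervals are exact Poisson for CPM, conditional binomial for ratios and Clopper-Pearson for shares, at 95%, and cover counting error only. Their script was tested on simulated data. Genes named are the 9 members, up to 3 per lipid list by the ratio bound nearest 1 or by level, and up to 3 most like each member. Genes outside this rule were named because they passed the fold. Members and lists were chosen with earlier results of these data known. Some genes of the lists are not reported here.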

Additional observations from a re-analysis of the deposited data

Results flagged for a closer look

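Opposite directions in different cell classes, each past 1.5-fold with a counting interval off 1, brought 2 genes here, and the difference between classes was not tested because each genotype was 1 library. Pltp had a ratio of Tsc1 RPE KO over Tsc1 flox of 0.424 in RPE-like cells and 2.09 in classical monocyte-like cells. Pltp was chosen for its opposite directions in these same data, so its place here was fixed by that choice. Apoe had a ratio of 0.444 in nonclassical monocyte-like cells, 1.88 in classical monocyte-like cells and 3.48 in T cell-like cells. The Apoe ratio was 0.851 in monocyte subcluster 1, which both libraries filled. Without the cell with most Apoe UMIs in each library it was 1.36 in classical monocyte-like cells and 10.1 in T cell-like cells, and without the 3 richest cells of each library 1.32 and 4.06. These last T cell-like values rest on 8 and 33 UMIs.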

How the results depend on the processing

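Of 359 ratios under other settings, of 28 results, 325 lay within the counting interval of the reported ratio, 32 moved outside it and 2 reversed. Both reversed ones had a reported ratio past the fold and crossed to the other side of 1. Ratios reported within the fold also crossed 1 without being counted as reversed. Among them were Apoc2 in nonclassical monocyte-like cells, 0.866 in subcluster 1, and Abcg1 in classical monocyte-like cells, 1.14 over the classical cells of subcluster 2. The reversed ones were Cd36 in classical monocyte-like cells, 0.876 over all cells of subcluster 2, which include 7 and 3 nonclassical cells, and 1.15 over its classical cells, and Lpl in nonclassical monocyte-like cells, 0.343 in subcluster 1 from only 19 and 6 UMIs. Apoe in classical monocyte-like cells had a ratio of 1.49 with lipid genes kept in the clustering, 1.66 at resolution 2, 3.42 at 1000 UMIs, 1.75 at 500 UMIs, 1.36 without the cell richest in Apoe in each library, 1.32 without the 3 richest, 1.75 without subclusters 6 and 9 and 1.16 in subcluster 3. In subcluster 2 it was 2.27 over all cells, 2.24 over the classical cells and 1.38 without the richest of these in each library. In subcluster 1 alone the nonclassical ratios were 0.851 for Apoe, 1.73 for Pltp and 0.886 for Cd36. Without the 3 richest cells of each library they were 0.489 for Apoe, 1.56 for Pltp and 3.90 for Lpl. The subclusters, the barcodes below the minimum and the removal of 1 or 3 cells were chosen after seeing the data. The cause of these shifts was not tested, except that subclusters hold fewer cells.

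Counts of other lipid genes past the fold moved with the minimum. In RPE-like cells the higher count of 1 became 8 at 20 UMIs and 15 with no minimum, and the lower count of 2 became 0 at 2-fold and 43 with no minimum. In nonclassical monocyte-like cells the higher count of 4 became 2 at 2-fold and 7 with no minimum, and the lower count of 7 became 2 at 2-fold and 31 with no minimum. A gene at 0 UMIs in a library was entered there at 3 counts. With no minimum, a gene seen by few UMIs in Tsc1 RPE KO only can thus count as lower. The lower counts with no minimum therefore show no direction. No paired analysis was possible because each genotype was 1 library. The RPE comparison rests on 12 Tsc1 flox cells and 1 library per genotype.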

Other observations

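Classes too small to compare also held members. Pericyte or smooth muscle-like cells (9 and 5 cells) had 13 and 6 Lpl UMIs, which are 355 and 290 CPM, the highest Lpl level of a named class in each library. Monocyte subcluster 9, a plasmacytoid dendritic cell-like group of 4 and 3 cells within the classical class led by Klk1 and Siglech, had Pltp in each cell, at 447 and 607 CPM, with 0 and 1 UMIs of Apoe and 0 of Cd36, Fabp4 and Apoc2.

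Free RNA, from barcodes of 10 to 100 UMIs, held 1029 and 1403 CPM of Apoe, 52.6 and 148 CPM of Apoc2, 40.4 and 161 CPM of Fabp4 and 21.8 and 45.2 CPM of Cd36 (Tsc1 flox first).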
